A study of Homo sapiens with 4 samples.

Results

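The unfolded protein response (UPR) genes described here are 10 genes of 16613 measured: the stress sensors ERN1, EIF2AK3 and ATF6, the transcription factor XBP1, the folding factors HSPA5, DNAJB11 and DNAJB9, and the degradation factors SYVN1, HERPUD1 and HERPUD2. They were chosen by symbol with earlier results of these data known, so a count of changed genes among them is a description, and each probe set used is paired with that symbol alone. All 10 were measured, with 8 to 30 probe sets each and 167 in all. RNA came from A2780/SRSF3si2 cells, a subline of the human ovarian cancer cell line A2780 that expresses an siRNA against the splicing factor SRSF3 when doxycycline (Doxy) is added. The Doxy group had received Doxy at 0.1 μg/ml over 3 days and the No Doxy group none, and each group has 2 Affymetrix human exon arrays. Both groups carry the same inducible siRNA. The sources used here do not say whether the subline is a single clone. Arrays of a control siRNA with Doxy were not used here, so an effect of Doxy itself and one of SRSF3 knockdown cannot be told apart.

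The endoplasmic reticulum (ER) folds secreted and membrane proteins, and the UPR is its answer to a load of unfolded protein. Of the sensors in the ER membrane, IRE1 (gene ERN1) is a kinase and RNase that splices XBP1 mRNA so that an active transcription factor is made, PERK (gene EIF2AK3) is a kinase that phosphorylates eIF2α and slows translation, and ATF6 is cut in the Golgi to free a transcription factor. Their targets include the chaperone BiP (gene HSPA5), its J-domain partners DNAJB11 and DNAJB9, and parts of ER-associated degradation (ERAD) such as the ubiquitin ligase SYVN1 and the membrane protein HERPUD1. Many of these targets carry an ER stress response element (ERSE) before their start site, which NF-Y binds together with ATF6 or XBP1.

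The promoters of HSPA5, XBP1 and HERPUD1 are shown because they hold such elements, and those of ERN1 and HERPUD2 because these genes had the largest differences of the 10. Each line is the 150 bases before the RefSeq start site in GRCh38.p14, and capitals mark the exact match of the element. The regions are chr9:125241344-125241493 (minus strand) for HSPA5, chr22:28800570-28800719 (minus) for XBP1, chr16:56931992-56932141 (plus) for HERPUD1, chr17:64130145-64130294 (minus) for ERN1 and chr7:35695136-35695285 (minus) for HERPUD2.
HSPA5: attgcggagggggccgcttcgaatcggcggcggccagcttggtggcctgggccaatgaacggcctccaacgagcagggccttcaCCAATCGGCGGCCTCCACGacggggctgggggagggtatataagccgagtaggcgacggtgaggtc
XBP1: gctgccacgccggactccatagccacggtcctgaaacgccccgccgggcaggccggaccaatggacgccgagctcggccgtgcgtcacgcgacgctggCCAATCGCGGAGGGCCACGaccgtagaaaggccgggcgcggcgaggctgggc
HERPUD1: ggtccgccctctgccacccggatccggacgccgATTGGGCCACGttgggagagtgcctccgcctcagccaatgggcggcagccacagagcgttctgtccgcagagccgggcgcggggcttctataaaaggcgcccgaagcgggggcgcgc
ERN1: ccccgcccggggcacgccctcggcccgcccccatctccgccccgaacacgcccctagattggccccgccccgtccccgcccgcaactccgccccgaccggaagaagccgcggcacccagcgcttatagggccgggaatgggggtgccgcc
HERPUD2: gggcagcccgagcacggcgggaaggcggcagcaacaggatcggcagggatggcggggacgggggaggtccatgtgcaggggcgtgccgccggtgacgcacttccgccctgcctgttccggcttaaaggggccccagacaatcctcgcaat

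RefSeq promoters of 250 bases before and 50 after the start were matched for all 10 genes and searched on both strands. The ERSE (CCAAT, 9 bases of any kind, then CCACG) was held by 0.0769% of 35116 promoters, and among the 10 genes by HSPA5 at bases -66 to -48 and by XBP1 at -52 to -34 from the start. A further XBP1 promoter, with its start nearer the 3′ side, did not hold it. The ERSE-II (ATTGG, 1 base, CCACG) was held by 0.0541% of promoters and among the 10 genes by HERPUD1, at bases -117 to -107. The UPRE (TGACGTGG) and the CARE of ATF4 (TGATG, 1 base, AAT), held by 0.729% and 0.991% of promoters, were in none of the 10 windows. The core CCACG, which both ERSE forms contain and whose reverse complement overlaps the UPRE, was held by 38.1% of promoters and by 6 of the 10 genes. A match describes these letters and is not a measured binding site. No mismatch was allowed, so near copies of an element were not counted, and a gene without a match can hold one.

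The array signals are log2 values made by the authors with the RMA method for core exon probe sets, and a gene value is the mean over the gene's probe sets. SRSF3, the target of the siRNA, had gene values of 8.50 and 8.33 in No Doxy replicates 1 and 2 and of 7.84 and 7.97 in Doxy replicates 1 and 2. The groups did not overlap and SRSF3 was lower with Doxy, but the difference of -0.51 (standard error 0.18) did not pass, at a limma adjusted p of 0.129. It passed with each array centred on its median (-0.67, adjusted p = 0.0377) and after quantile normalization (-0.64, 0.0475), and over all alternatives the adjusted p ran from 0.0377 to 0.710. The paper reports robust suppression of SRSF3 in this subline with Doxy, by quantitative PCR and western blotting. Those measures were not used here. Array medians were 5.04 to 5.20 without Doxy and 5.18 to 5.38 with Doxy, and centring them lowered every Doxy difference by 0.16. Gene values correlated across genes with r = 0.987 between the No Doxy arrays, 0.988 between the Doxy arrays and 0.969 to 0.972 between groups. Of 8 measured epithelial and ovarian carcinoma markers, 2 passed limma's adjusted p, both higher with Doxy and named after their values were seen. The cell adhesion gene EPCAM rose by 2.10 (4.19 and 4.16 without Doxy, 6.31 and 6.24 with Doxy, adjusted p = 0.00296), about as much as ERN1, and CDH1, the E-cadherin gene, rose by 0.93 (adjusted p = 0.0446). The rest of this list did not pass and went both ways. KRT18 (0.55) and PAX8 (0.28) were higher in both Doxy arrays, and KRT19 (-0.81, adjusted p = 0.0759) and KRT8 (-0.38) were lower. MSLN (0.14) and WT1 (-0.01) overlapped between the groups. The No Doxy gene values of the 8 markers ran from 3.41 to 5.89, beside a median of all genes of 5.00. Of the other markers, 3 for leukocytes were at 2.25 to 4.11, 4 for endothelium at 2.87 to 3.84 and 5 for fibroblasts at 4.27 to 9.25, with 0, 0 and 1 of them called. The called fibroblast marker was LUM, which rose by 0.79 (adjusted p = 0.0390). The part of these markers in the results was not tested.

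Of the 10 genes, 4 rose and 2 fell with Doxy at a Benjamini-Hochberg adjusted p under 0.05 from limma over all genes. ERN1, ATF6, DNAJB11 and SYVN1 rose, where 5.66% of all 16613 genes did, and XBP1 and HERPUD2 fell, where 1.70% did. Over all genes these shares stand for 940 higher and 282 lower, a split that became 916 and 952 with centred arrays and 895 and 602 after quantile normalization. EIF2AK3, HSPA5, DNAJB9 and HERPUD1 did not pass. In 8 of the 10 genes both Doxy arrays lay above both No Doxy arrays, as in 30.5% of all genes, and in 2 both lay below, as in 21.8%. The median difference of the 10 was 0.45 on the log2 scale, against 0.04 over all genes. In these bulk samples fewer cells that express a gene and less of its RNA per cell cannot be told apart. No source used here describes the replicates as separate cultures, so the p-values measure array-to-array spread only, possibly technical.

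**Figure D1:**
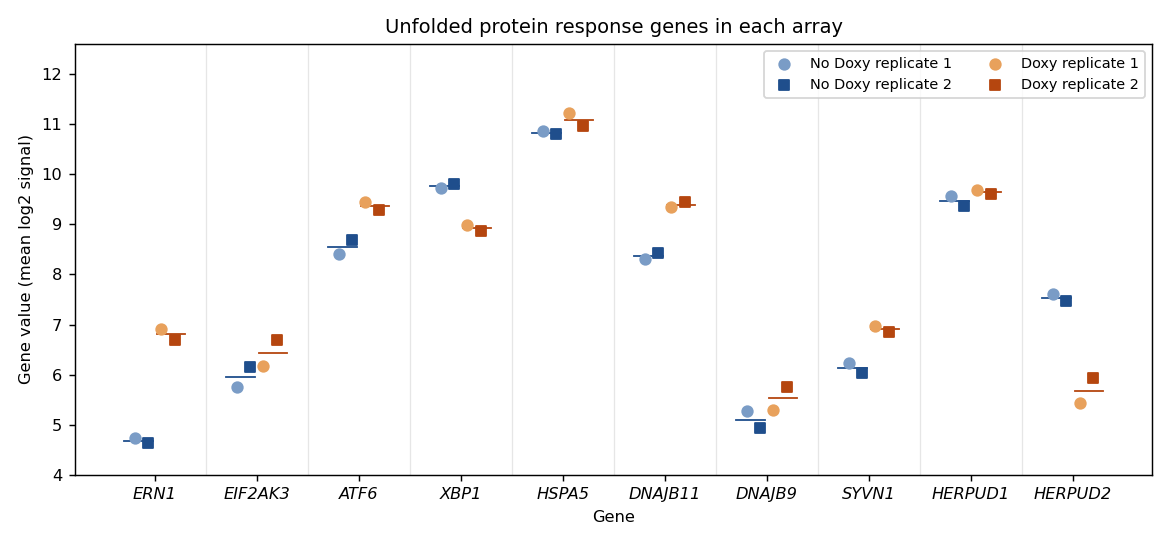
Gene values (mean log2 signal over the gene's probe sets) of the 10 UPR genes in each of the 4 arrays, with circles for replicate 1, squares for replicate 2 and short lines for group means. The ERN1 points of the Doxy arrays lie at 6.91 and 6.69 above No Doxy points at 4.74 and 4.63, and HERPUD2 shows the opposite order.

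These calls rest on all 4 arrays. Without No Doxy replicate 1 limma called 0 of 16613 genes (3085 at an unadjusted p under 0.05), and without No Doxy replicate 2 also 0 (2575), so that no gene of the 10 passed there. The adjusted p-values of the 6 called genes were then 0.124 to 0.202 and 0.120 to 0.238. Without Doxy replicate 1, ERN1, DNAJB11 and HERPUD2 still passed, and ATF6 (adjusted p = 0.115), XBP1 (0.0635) and SYVN1 (0.114) did not. Without Doxy replicate 2, ERN1 and HERPUD2 passed (adjusted p = 0.0263 for both), and ATF6 (0.113), XBP1 (0.126), DNAJB11 (0.0877) and SYVN1 (0.122) did not. In every one of the 13 alternatives tried, each of the 10 genes kept the sign of its difference, but several alternatives could not change it. The groups overlapped in none of the 10 genes, so leaving out 1 array could not. The replicate block, the trended and robust prior and the minimum of probe sets left each difference as it was.

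Among the sensors, ERN1 had the largest difference and EIF2AK3 did not pass. The ERN1 gene value was 4.74 and 4.63 in the No Doxy arrays and 6.91 and 6.69 in the Doxy arrays. All Doxy values were above all No Doxy values by more than the spread within either group. ERN1 rose 4.34-fold, a log2 difference of 2.12 (limma adjusted p = 0.00296, standard error 0.18), which was 2.00 to 2.23 with any single array left out. Its paralog ERN2, known from gut and airway epithelium and added here after its values were seen, had a difference of 0.19 at a low signal of 4.04 ± 0.08 without Doxy and 4.23 ± 0.01 with Doxy (SD, n = 2 arrays each, adjusted p = 0.583).

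ATF6 was at 8.41 and 8.68 in the No Doxy arrays and at 9.45 and 9.29 in the Doxy arrays. The groups did not overlap, and ATF6 rose by 0.82 (limma adjusted p = 0.0396, standard error 0.19). The call was close to the threshold and held in 5 of the 13 alternatives, with adjusted p-values between 0.00795 and 0.202. It ended, for example, with centred arrays (0.66, adjusted p = 0.0565) and held after quantile normalization (0.70, adjusted p = 0.0497). Its probe set differences ran from 0.09 in 2363922 to 1.67 in 2363921, and 18 of 20 probe sets were higher in both Doxy arrays, where 26.4% of all 261273 probe sets were. EIF2AK3, the PERK gene, was at 5.75 and 6.15 without Doxy and at 6.18 and 6.68 with Doxy. Doxy replicate 1 exceeded No Doxy replicate 2 only slightly, and the difference of 0.48 (95% interval -0.06 to 1.02, adjusted p = 0.277) was 0.22 without Doxy replicate 2 and 0.73 without Doxy replicate 1. Of its 23 probe sets, 19 overlapped between the groups. They ran from -0.18 in 2563683 to 1.60 in 2563668, where 1 array, Doxy replicate 2 at 5.22, stood above values of 2.51, 1.70 and 2.20.

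**Figure D2:**
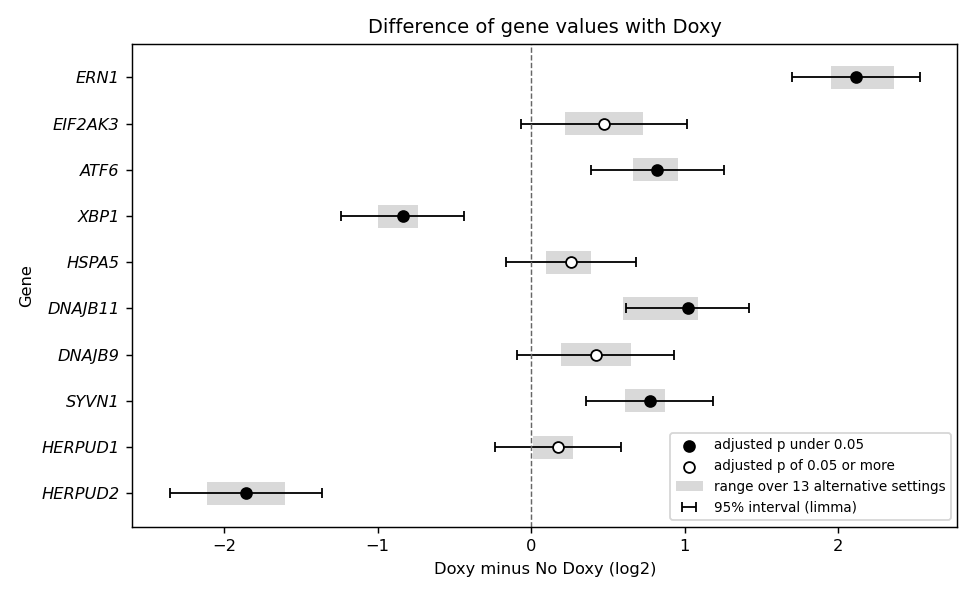
Differences of the 10 gene values between Doxy and No Doxy arrays on the log2 scale, with 95% intervals from limma and grey bars for the range over 13 alternative settings. Filled points, those of an adjusted p under 0.05, are ERN1, ATF6, DNAJB11 and SYVN1 to the right of 0 and XBP1 and HERPUD2 to the left. No grey bar crosses 0, though several of the settings could not change a sign.

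XBP1 fell while ERN1 rose. It was at 9.73 and 9.80 in the No Doxy arrays and at 8.99 and 8.87 in the Doxy arrays. The groups were well apart, and XBP1 fell by 0.84 on the log2 scale (limma adjusted p = 0.0305, standard error 0.17), a 1.79-fold decrease. In each of its 10 probe sets both Doxy values lay below both No Doxy values, as in 19.0% of all probe sets, with differences from -1.10 in 3956591 to -0.57 in 3956594. These values are of total XBP1 signal. The forms before and after splicing by IRE1 differ by a short intron and were not told apart here. The XBP1 call ended with the median of the probe sets (difference -0.74, adjusted p = 0.149) and with dim probe sets left out (adjusted p = 0.0578, same difference).

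The folding factors differed in size of change. DNAJB11, an ER-luminal J protein that hands unfolded clients to BiP, was at 8.31 and 8.44 without Doxy and at 9.34 and 9.44 with Doxy. The replicates lay close together and the groups far apart, and DNAJB11 rose by 1.02 (limma adjusted p = 0.0187, standard error 0.17), a 2.03-fold increase. All 11 of its probe sets were higher in both Doxy arrays, where 26.4% of all probe sets were. The increase was uneven in size, from 0.54 in probe set 2656583 to 1.91 in probe set 2656577, and with the median of the probe sets the gene difference was 0.60 (adjusted p = 0.242).

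HSPA5, the BiP gene, was the brightest of the 10 at 10.87 and 10.79 without Doxy, and it was at 11.22 and 10.96 with Doxy. Its difference of 0.26 (95% interval -0.16 to 0.68, adjusted p = 0.471) was 0.10 with centred arrays and did not pass in any of the 13 alternatives. All 16 HSPA5 probe sets had differences above 0, and 9 were higher in both Doxy arrays, where 26.4% of all probe sets were. The 16 differences ran from 0.05 to 0.89, with the highest in probe set 3225402. DNAJB9, the J protein that holds IRE1 in its inactive state together with BiP, was at 5.27 and 4.93 without Doxy and at 5.30 and 5.75 with Doxy. No Doxy replicate 1 and Doxy replicate 1 were nearly equal, and the difference was 0.42 (95% interval -0.09 to 0.93, adjusted p = 0.313). Its 8 probe sets ran from -0.25 in 3018880 to 0.75 in 3018871, and 6 of them overlapped between the groups.

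Of the ERAD genes, HERPUD2 fell and SYVN1 rose. HERPUD2, a little-studied paralog of HERPUD1, was at 7.61 and 7.46 in the No Doxy arrays and at 5.42 and 5.93 in the Doxy arrays. The lowest No Doxy array was far above the highest Doxy array. HERPUD2 fell by 1.86 on the log2 scale (limma adjusted p = 0.00821, standard error 0.21), a 3.62-fold decrease. HERPUD1, which binds the SYVN1 complex and is a textbook UPR target, was at 9.57 and 9.37 without Doxy and at 9.68 and 9.61 with Doxy. Its difference was 0.17 (adjusted p = 0.637) and 0.01 with centred arrays, with probe sets from -0.30 in 3662389 to 0.45 in 3662410. The 95% intervals of the 2 paralogs, -2.35 to -1.36 for HERPUD2 and -0.23 to 0.58 for HERPUD1, did not overlap, and their difference itself was not tested.

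SYVN1, the membrane ubiquitin ligase of ERAD also called HRD1, was at 6.23 and 6.03 without Doxy and at 6.96 and 6.84 with Doxy. The groups did not overlap, and SYVN1 rose by 0.77 (limma adjusted p = 0.0420, standard error 0.18). The call was close to the threshold and held in 4 of the 13 alternatives. It ended, for example, with centred arrays (difference 0.61, adjusted p = 0.0668) and after quantile normalization (0.63, adjusted p = 0.0642). Of its 20 probe sets, 13 were higher in both Doxy arrays and 1, 3377488 with a difference of -0.19, was lower. Of all probe sets 26.4% were higher and 19.0% lower in this way. The widest probe set difference, 2.19 in probe set 3377490, came from an isolated low value of 1.42 in No Doxy replicate 2, against 5.53 in No Doxy replicate 1 and 6.08 and 5.25 with Doxy.

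Exon arrays read each exon, or part of one, with a probe set of its own, so whether the probe sets of a gene moved together was tested by limma's diffSplice. ERN1 (adjusted p = 3.7e-07) and HERPUD2 (adjusted p = 0.0428) passed, where 2.48% of all genes did. The other 8 genes did not, with DNAJB11 next at an unadjusted p of 0.0419 (adjusted p = 0.347). No single probe set of the 167, and none of all 261273, passed limma's adjusted p for its own difference, while 70 of the 167 had an unadjusted p under 0.05, against 12.7% of all probe sets. With a trended and robust prior 21 of the 167 and 2208 of all probe sets passed. The probe sets of 1 gene share their arrays, so they are not independent.

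In ERN1 the probe sets fell into 2 runs when set in the order of their IDs, a split described after the values were seen and not tested. All 24 with the lower IDs, 3766656 to 3766694, were higher in both Doxy arrays, with differences of 1.01 to 5.02 and a median of 2.43. Their mean was 4.41 and 4.50 in the No Doxy arrays and 7.25 and 6.90 in the Doxy arrays. Of the 6 with the highest IDs, 3766702 to 3766707, none was higher in both Doxy arrays, 2 were lower in both and 4 overlapped. Their differences ran from -0.91 to 0.77. The change at the border was abrupt. Probe set 3766694 went from 4.79 and 3.86 without Doxy to 9.78 and 8.90 with Doxy, the largest difference of any probe set of the 10 genes, and the next by ID, 3766702, had a difference of 0.77. Probe set 3766704, also among the 6, was bright in all arrays, at 9.87 and 9.81 without Doxy and 9.67 and 9.71 with Doxy. Probe set 3766706 had 5.70 and 4.35 without Doxy and 4.19 and 4.04 with Doxy. Probe sets 3766694, 3766704 and 3766706 were those of ERN1 that deviated from the rest of the gene by diffSplice's adjusted p (0.000803, 0.0187 and 0.000399 in this order).

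**Figure D3:**
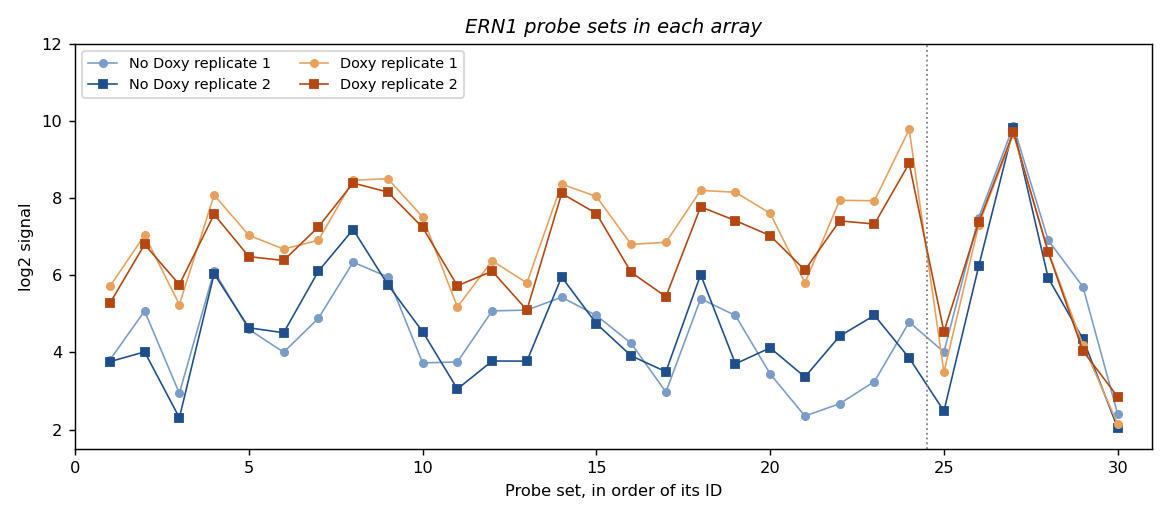
Signal (log2) of the 30 ERN1 probe sets in each array, in the order of their IDs, with lines joining the probe sets of an array and a dotted line between the 24 lower and the 6 highest IDs. The Doxy lines run above the No Doxy lines up to the dotted line and cross them after it.

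Positions of probe sets in exons were not analysed here. Between genes on a strand, probe set IDs rose with the chromosome coordinate. On the minus strand of chromosome 17, which holds ERN1, the Spearman correlation was above 0.999 over the 334 genes compared (the order itself, given as a description). A gene on the minus strand is transcribed toward lower coordinates. Whether IDs also rise with the coordinate within a gene was not tested. With Doxy replicate 1 left out the ERN1 adjusted p of diffSplice was 0.587, and with Doxy replicate 2 left out it was 0.110. Few genes passed there, 36 and 20 of all 16613 against 412 with all arrays, so this loss was not particular to ERN1. Its adjusted p stayed at or under 0.000818 in the other alternatives run. The gene value of ERN1 includes the 6 probe sets with the highest IDs, and the mean difference over the other 24 alone was 2.62.

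HERPUD2 showed a similar layout with a single flat probe set. The 14 probe sets with IDs 3045742 to 3045765 were lower in both Doxy arrays, and each had an unadjusted p under 0.05. They fell by 1.04 to 3.53, most in probe set 3045745, from 6.83 and 5.84 to 2.32 and 3.30. Probe set 3045767, the highest ID, was at 7.19 and 6.66 without Doxy and at 7.03 and 6.60 with Doxy. The HERPUD2 result of diffSplice was near the threshold and ended in 7 of the 9 alternatives run for it, with adjusted p-values up to 1.00, and it held with centred arrays (adjusted p = 0.0141) and after quantile normalization (0.0139). With No Doxy replicate 1 or 2 left out it was 0.185 or 0.365, and with Doxy replicate 1 or 2 left out 1.00 or 0.110. In XBP1, ATF6 and HSPA5 no probe set had a difference of the other sign from its gene, while 2 of 23 did in EIF2AK3, 1 of 8 in DNAJB9, 1 of 20 in SYVN1 and 3 of 14 in HERPUD1.

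**Figure D4:**
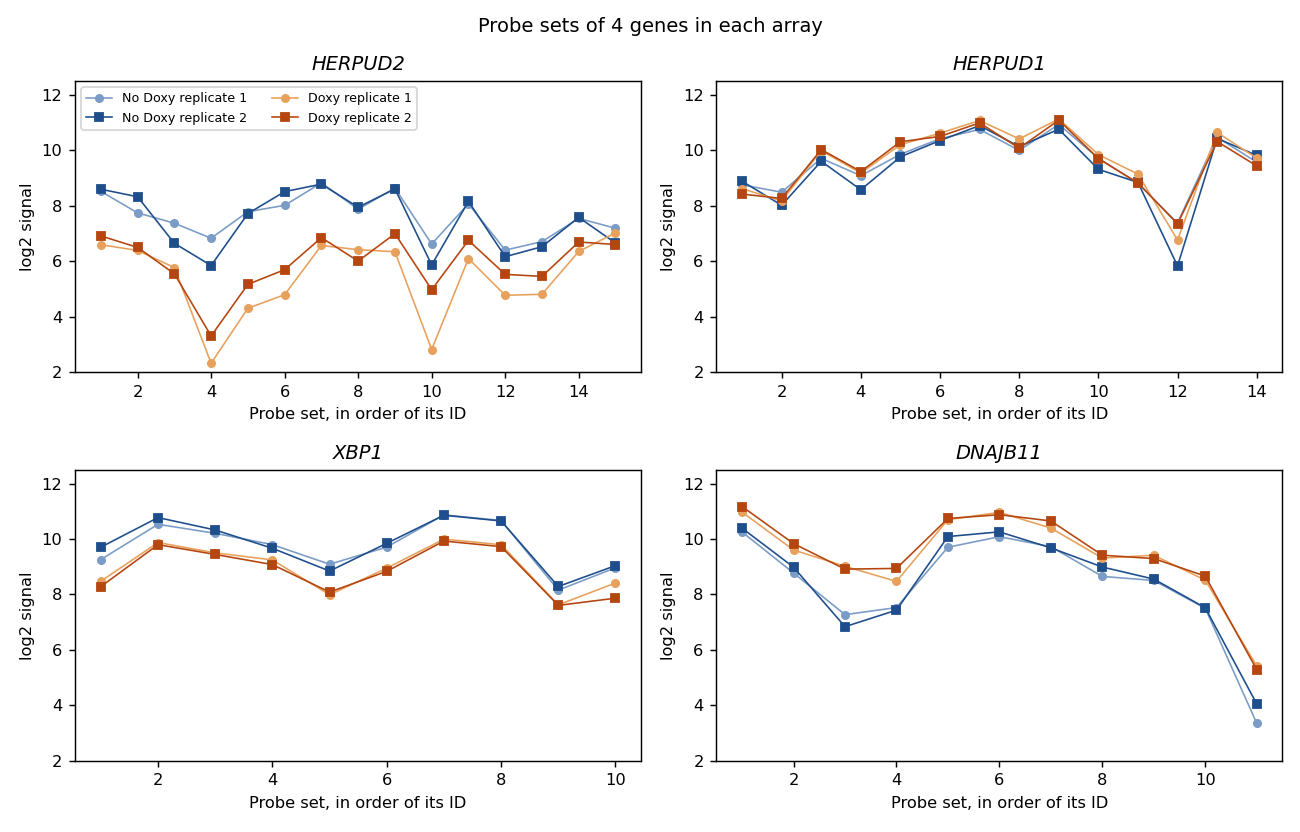
Signal (log2) of the probe sets of HERPUD2, HERPUD1, XBP1 and DNAJB11 in each array, in the order of their IDs. In HERPUD2 the Doxy lines lie below the No Doxy lines for 14 of 15 probe sets and meet them at the last, in HERPUD1 the groups overlap for 7 of 14, in XBP1 all 10 are lower and in DNAJB11 all 11 are higher.

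Of 127 further genes of the UPR branches, ER folding and ERAD, 11 passed limma's adjusted p, which is 8.66% beside 7.36% of all genes. Of these, 10 rose (7.87% beside 5.66%) and 1 fell (0.787% beside 1.70%), so the counts are near those of all genes. Of 22 measured genes of the IRE1 branch, which holds its partners and the translocon targets of XBP1, SEC61A1, the channel subunit of the translocon, fell by 0.90 (adjusted p = 0.0281) and SRP54, a subunit of the signal recognition particle, rose by 0.76 (adjusted p = 0.0469). Of 18 genes of the PERK branch, PPP1R15B, the constitutive partner of the eIF2α phosphatase, rose by 1.24 (8.35 and 8.31 without Doxy, 9.50 and 9.64 with Doxy, adjusted p = 0.0124) and EIF2B2, a subunit of the eIF2 exchange factor, by 0.85 (adjusted p = 0.0457), and 0 fell. The stress-induced partner PPP1R15A had a difference of -0.24 (adjusted p = 0.557), ATF4 one of 0.23 (0.547) and its target DDIT3, the CHOP gene, one of 0.59 (0.154). These 3 were chosen as the best known genes of the branch after their values were seen.

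Of 13 genes of the ATF6 branch, ATF6B, the paralog of ATF6, rose by 0.97 (7.26 and 7.23 without Doxy, 8.15 and 8.27 with Doxy, adjusted p = 0.0203), and the other 12 did not pass. Of 38 ER chaperones and folding enzymes, SIL1, a nucleotide exchange factor of BiP, rose by 1.11 (adjusted p = 0.0179). The other 37 did not pass. With centred arrays 1 of the 38 rose and 4 fell, and after quantile normalization 1 rose and 3 fell. Without overlap of the groups 9 of the 38 were above and 12 below, where 30.5% and 21.8% of all genes were. Of 37 ERAD genes 5 rose and 0 fell, where 5.66% and 1.70% of all genes did, and 24 were higher in both Doxy arrays against 3 lower, where 30.5% and 21.8% of all genes were. No ERAD gene passed with the median of probe sets, with Tukey's median polish, or with either No Doxy array or Doxy replicate 2 left out, and with centred arrays 4 rose and 1 fell. Of these 5, the ubiquitin ligase gene RNF139 rose by 0.95, the glycan lectin gene OS9 by 0.97, the gene UBXN4 of a VCP partner by 0.91 and the ubiquitin ligase gene RNF185 by 0.78 (adjusted p from 0.0250 to 0.0392). The median differences were 0.33 for ERAD, 0.21 for the ATF6 branch and 0.17 for the PERK branch. They were 0.14 for the IRE1 branch, which turned to -0.02 with centred arrays and -0.01 after quantile normalization, and 0.06 for folding enzymes, which turned to -0.11 and -0.06, to -0.10 without No Doxy replicate 2 and to -0.01 without Doxy replicate 2. All genes had a median of 0.04, which turned to -0.13 with centred arrays and -0.05 after quantile normalization.

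For comparison, 7 of 24 genes of the cytosolic HSP70 and HSP90 system rose and 0 fell, where 5.66% and 1.70% of all genes did. The list median was 0.50. DNAJB4 rose by 2.34, DNAJB1 by 1.36, DNAJC7 by 1.01 and HSP90AA1 by 1.25 (adjusted p from 0.00296 to 0.0188), all chaperones or cochaperones of the cytosol. Of 23 ATF4 targets of the amino acid response, 1 rose and 2 fell, beside the same shares of all genes. SLC7A11, a cystine transporter, rose by 1.05, and DDIT4 and STC2 fell by 1.20 and 0.89. The median of these targets was 0.11, which turned to -0.05 with centred arrays and to -0.02 without Doxy replicate 1. No test was made of one list against another.

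**Figure D5:**
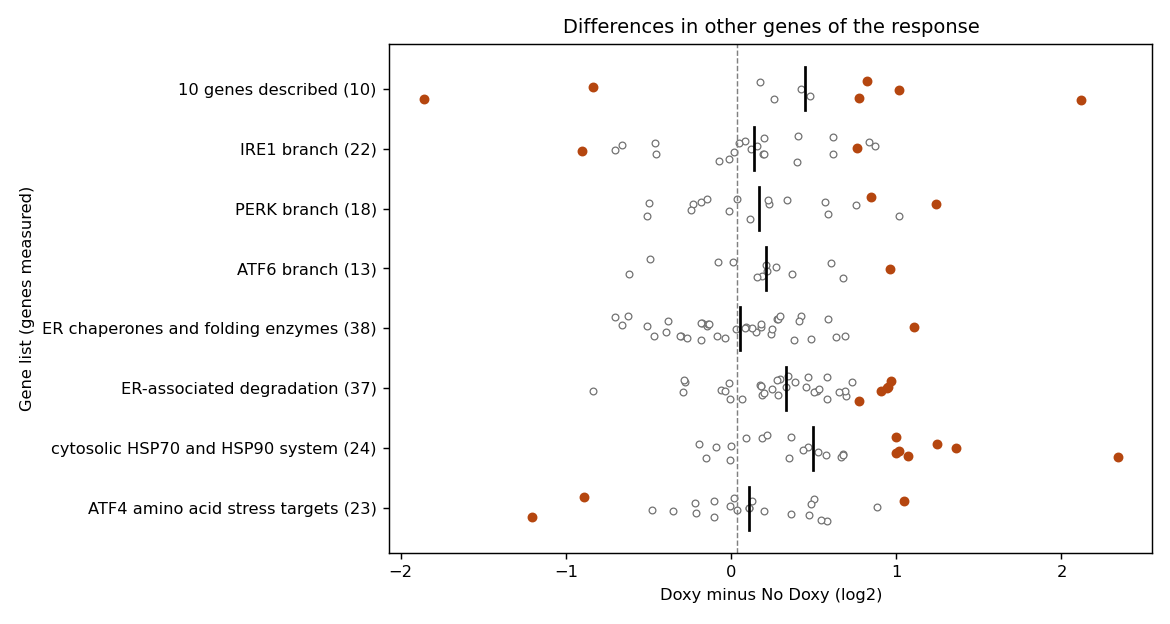
Differences between Doxy and No Doxy arrays (log2) of the 10 genes and of the measured genes of 7 lists, 1 point a gene, filled at an adjusted p under 0.05 from limma. Black bars mark list medians, from 0.06 for ER folding enzymes to 0.50 for the cytosolic HSP70 and HSP90 system, and the dashed line marks the median of all genes at 0.04.

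Set beside the promoter letters, HSPA5, XBP1 and HERPUD1, whose windows hold an ERSE or ERSE-II, had differences of 0.26, -0.84 and 0.17. ERN1, ATF6, DNAJB11 and SYVN1, which rose, held no exact match of the 4 elements in the windows searched, and near copies were not searched for. Of 18 measured genes with an ERSE in a RefSeq promoter window, 2 rose and 1 fell, with a median of -0.11. Of 14 with an ERSE-II, 2 rose and 0 fell, with a median of -0.06. Over all genes 5.66% rose and 1.70% fell, with a median of 0.04. The small counts of genes with an element were not tested against these shares.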

How the data were processed

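RNA from 2 No Doxy and 2 Doxy arrays of A2780/SRSF3si2 cells was compared, with groups taken from the sample titles. The deposited values are log2 signals per core exon probe set, which the authors made by RMA in Affymetrix Expression Console. For the version and options of that software, and for the genome build, no statement was found in the sources used here. The submitters' notes name Partek 6.6. Of 287329 probe sets, 261273 with 1 symbol in the platform annotation were used, and those with several (9155) or none (16901) were not. The RefSeq table of GRCh38.p14 held 14546 of 16941 symbols as current names, 2300 more were updated through it and 95 were kept as listed.

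Gene values (mean log2 over at least 2 probe sets) and single probe sets were fitted with limma 3.58.1 (R 4.3.3), with Benjamini-Hochberg adjustment over all genes or probe sets at a threshold of 0.05. The prior of the gene fit had 5.95 degrees of freedom, and 2 residual degrees were left. Exon use was tested by diffSplice's F test. The main gene, exon use and probe set fits were tested on simulated data, and the alternatives were not. The simulations of exon use and of probe sets gave all probe sets a common variance, which real probe sets need not have. The members and lists were chosen with earlier results of these data known. Named genes are the 10 members, SRSF3, and of each list up to 4 called genes with the smallest p, and of each member the probe sets with the highest and lowest difference. Exceptions are named in the text. Motifs were searched in RefSeq promoters. Alternatives were the median or Tukey's median polish of probe sets, the dimmest 25% of probe sets left out, at least 1 or 5 probe sets, centred or quantile normalized arrays, a replicate block, Simes' test, a trended and robust prior, and each array left out. Equally numbered arrays are not described as pairs, and the correlation of their deviations from the group means, over genes and 2 pairs, was 0.127. A replicate block, which takes them as pairs, called 1727 genes higher and 636 lower, against 940 and 282 without it. Whether the arrays are pairs was not established. Where a group kept 1 array, its spread was taken to equal that of the other group. The number of arrays limits the precision. Figures were drawn with matplotlib 3.10.9.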

Additional observations from a re-analysis of the deposited data

How the results depend on the processing

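No difference of the 10 genes changed sign in the 13 alternatives, several of which could not change one. Of 130 gene results, 99 kept their side of the threshold, 31 lost it and 0 gained it. The 99 include all results of EIF2AK3, HSPA5, DNAJB9 and HERPUD1, which had no call to lose. Of the 13 alternatives, the call held in 11 for ERN1, 11 for HERPUD2 and 9 for DNAJB11. It held in 7 for XBP1, 5 for ATF6 and 4 for SYVN1. Of the 10 genes, 6 were called (4 higher, 2 lower), and with the median of probe sets 2 were (1 and 1). Leaving out dim probe sets gave 3 (2 and 1). With Tukey's median polish and with centred arrays 2 higher genes were called. With an array left out the count was 0 to 3, with 0 to 2 higher and 0 to 1 lower. The median difference of the 10 was 0.30 with Tukey's median polish, 0.29 with centred arrays, 0.32 after quantile normalization and 0.31 to 0.68 with an array left out. Of the 127 further genes 11 were called, and 1 with the median of probe sets, 5 without dim probe sets, 20 with at least 5 probe sets per gene, 19 with centred arrays and 0 to 6 with an array left out. With a replicate block 30 of them were called, and 6 of the 10 genes (4 higher, 2 lower) as without it. Of the 10 genes, 2 passed diffSplice, and 1 did by Simes' test, without dim probe sets and under the replicate block, and 0 to 2 with an array left out. Over all genes diffSplice called 412, and 4009 (24.1%) with No Doxy replicate 1 left out, where ERN1 and SYVN1 passed, 418 with No Doxy replicate 2, 36 with Doxy replicate 1 and 20 with Doxy replicate 2 left out. With a trended and robust prior 21 of the 167 probe sets passed, and 0 in the other alternatives. Over all genes 940 higher and 282 lower became 573 and 96 when Doxy replicate 1 was left out, 69 and 82 when Doxy replicate 2 was, 0 and 0 when either No Doxy array was, 916 and 952 with centred arrays, 895 and 602 after quantile normalization, 163 and 76 with the median of probe sets, 598 and 204 without dim probe sets, 550 and 218 with Tukey's median polish and 1727 and 636 with the replicate block. Where the cause of a changed count is not the number of arrays or genes, it was not tested.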
